A study of Mus musculus with 6 samples.

Results

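The genes described are 10 members of the integrated stress response and its secreted signals: *Atf4*, *Atf5*, *Ddit3*, *Trib3*, *Asns*, *Psat1*, *Phgdh*, *Mthfd2*, *Fgf21* and *Gdf15*. They were listed by name with no threshold on their values, although earlier results of these data were known when the list was made. All 10 were found among the 41709 genes of the deposited table, 9 under their plain symbol. *Ddit3* was listed as 2 rows with a numbered suffix, and the GENCODE annotation of GRCm39 holds 2 overlapping genes of that name on chromosome 10. One of these rows was at 0 in all 6 libraries, and the other row is given below as *Ddit3*. The table holds TPM values, which give the relative abundance of transcripts after allowing for gene length, and keeps no record of sequencing depth, so counting error cannot be given. The libraries come from tibialis anterior (TA) muscles of male C57BL/6J mice, collected 14 days after electroporation. In the 3 LrpprcWT muscles the plasmid encoded wild-type mouse Lrpprc, and in the 3 LrpprcP27A muscles it encoded a variant in which proline 27 is alanine and cannot be hydroxylated. Both proteins were Flag-tagged and expressed from pCMV6 plasmids in contralateral muscles. All 6 muscles kept their own *Lrpprc* gene and had been injected and electroporated, and no untouched muscle is part of the series. The age of the sequenced mice is not given in the sources used here.

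The integrated stress response is a shared answer of cells to amino acid shortage, unfolded protein, viral RNA and mitochondrial failure. Each of 4 kinases phosphorylates the translation factor eIF2α, which lowers protein synthesis in general while the *Atf4* mRNA is translated more. The Atf4 protein then induces genes for amino acid synthesis, one-carbon metabolism and amino acid import. In muscle with mitochondrial disease the response is known for the rise of these genes and of the hormones Fgf21 and Gdf15, which act on other tissues and are called mitokines. Lrpprc itself binds mitochondrial mRNAs, and its loss causes a form of Leigh syndrome. Because Atf4 is controlled largely by translation, its mRNA level is not a measure of its protein.

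Facts of the whole table bear on every value below. Of the 11611 genes with a mean of at least 1 TPM, 88.0% had a log2 fold change below 0 with LrpprcP27A, and the median log2 fold change was -0.32. Here and below a log2 fold change is the difference of log2(TPM + 1), LrpprcP27A minus LrpprcWT. It was tested with limma and Benjamini-Hochberg adjustment over all 11611 genes, without pairing of the libraries unless a block is named. Dividing the libraries by median-of-ratios factors, which centre the typical gene, brought that median to -0.0047, so directions are given on both scales where they differ. *Lrpprc* mRNA had 35.1, 37.0 and 75.2 TPM in LrpprcWT replicates 1, 2 and 3 and 26.9, 29.7 and 26.0 TPM in LrpprcP27A replicates 1, 2 and 3, without separating plasmid from host transcripts (log2 fold change -0.72, adjusted p = 0.0652 from limma). *Lrpprc* was below in 3 of 3 same-numbered pairs and was called lower with the replicate number as a block (adjusted p = 0.00243 from limma), but not when the libraries were also scaled by median of ratios (adjusted p = 0.245). The same LrpprcWT replicate 3 was the highest of the 6 libraries for 9 of the 10 members. It also had the largest median-of-ratios factor (1.254), close to the 1.226 of LrpprcWT replicate 1, while LrpprcWT replicate 2 had 0.9736. The share of all tested genes that were highest in LrpprcWT replicate 3 was not counted, so the 9 members have no baseline. By qRT-PCR the paper reports similar *Lrpprc* mRNA with either plasmid in contralateral muscles of young mice, and no significant difference in old mice. It does not state whether the sequenced muscles were among them. Whether the plasmid's dose has a part in the values below was not tested.

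Markers of other cell types moved with the groups as well. Their counts and sums are on the deposited scale only, where 88.0% of all tested genes were below 0 and 23.3% were called lower. Values of the markers after median-of-ratios scaling are not given, so small differences cannot be told from the shift of the typical gene. All 6 macrophage markers were lower with LrpprcP27A (limma, adjusted p under 0.05), and their summed level was 79.6 to 176 TPM with LrpprcWT and 28.0 to 61.8 TPM with LrpprcP27A. Of the 5 fibro-adipogenic markers 3 were lower, with sums of 476 to 690 TPM and 148 to 290 TPM. Of the 5 endothelial markers 2 were lower, with sums of 182 to 327 TPM and 124 to 178 TPM. Of the 3 satellite cell markers 2 were lower, with sums of 14.2 to 15.4 TPM and 11.7 to 11.8 TPM. The 7 myofibre markers, which define the tissue, summed to between 98461 and 109215 TPM with LrpprcWT. With LrpprcP27A they summed to between 94345 and 107121 TPM, and these ranges overlap. Adipocyte, Schwann cell and neutrophil markers had overlapping sums of 1.63 to 5.60, 15.2 to 34.6 and 22.3 to 48.5 TPM over all libraries. None of these defining markers was at 0 in all libraries. Fewer cells of a type and less RNA per cell cannot be told apart in whole muscle, and the part of these cells in the members' values was not tested.

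Atf4 binds DNA at the C/EBP-ATF response element, whose core is written here as TGATGNAA. It was searched on both strands of RefSeq promoters of the GRCm38.p6 annotation, windows of 250 bases before to 50 after a transcription start. The stricter form TGATGCAA is one of its 4 spellings, so every match to it is also a match to the core. All 10 members had a window, in 13 windows together, and 3 members held the core, *Asns*, *Fgf21* and *Trib3*, with *Fgf21* alone holding the stricter form. Over all genes with a window, 4.51% of 27025 held the core and 1.03% the stricter form. The 3 sites are shown because no other member held the core. They lie in genes of 3 different roles, an enzyme, a hormone and a regulator. Capitals mark the match, and each sequence runs 5′ to 3′ on the strand of its gene, here the minus strand of GRCm39, on which each window was placed by an exact and single match.
Asns: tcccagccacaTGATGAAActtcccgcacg
Fgf21: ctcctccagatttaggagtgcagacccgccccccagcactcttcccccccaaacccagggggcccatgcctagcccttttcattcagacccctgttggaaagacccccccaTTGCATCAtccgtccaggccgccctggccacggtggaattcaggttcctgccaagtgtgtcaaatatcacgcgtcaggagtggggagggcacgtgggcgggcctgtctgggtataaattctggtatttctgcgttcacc
Trib3: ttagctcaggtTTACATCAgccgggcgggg

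The *Asns* stretch is chr6:7693214-7693243 and its site starts at base -23 from the RefSeq start, in a non-coding exon of 22 of the 40 GENCODE transcripts of the gene. The *Fgf21* stretch is chr7:45264915-45265164, the 250 bases before the start. Its site, written on the opposite strand, begins at base -139 from the start, in an intron of 2 of the 3 GENCODE transcripts and upstream of the other. The *Trib3* stretch is chr2:152185948-152185977, and its site, also on the opposite strand, begins at base 15 after the start, in a non-coding exon of 5 of the 12 transcripts. A match is not evidence of binding, and a window without one says nothing about sites elsewhere. Among the 246 tested genes whose window held the core, 68 were called lower (27.6%) and 2 higher by limma (adjusted p under 0.05), with a median log2 fold change of -0.33. These values are close to the 23.3% and the -0.32 of all tested genes.

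Levels of the members spanned a wide range. TPM is corrected for length, so genes can be ranked by it. With LrpprcWT the order of the mean levels was *Atf4* (113 TPM), *Atf5* (71.7), *Ddit3* (29.9), *Mthfd2* (4.43), *Gdf15* (2.37), *Asns* (2.36), *Psat1* (2.02), *Trib3* (1.78), *Phgdh* (1.71) and *Fgf21* (0.541). The 3 transcription factors stood apart from each other and from the rest at the top. Each of the 6 genes from *Mthfd2* to *Phgdh* overlapped with its neighbours among these 6 over the LrpprcWT libraries, and the highest *Fgf21* library (0.860 TPM) exceeded the lowest *Psat1* library (0.839 TPM). With LrpprcP27A the same 4 genes led and *Gdf15* moved from rank 5 to rank 9.

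**Figure D1:**
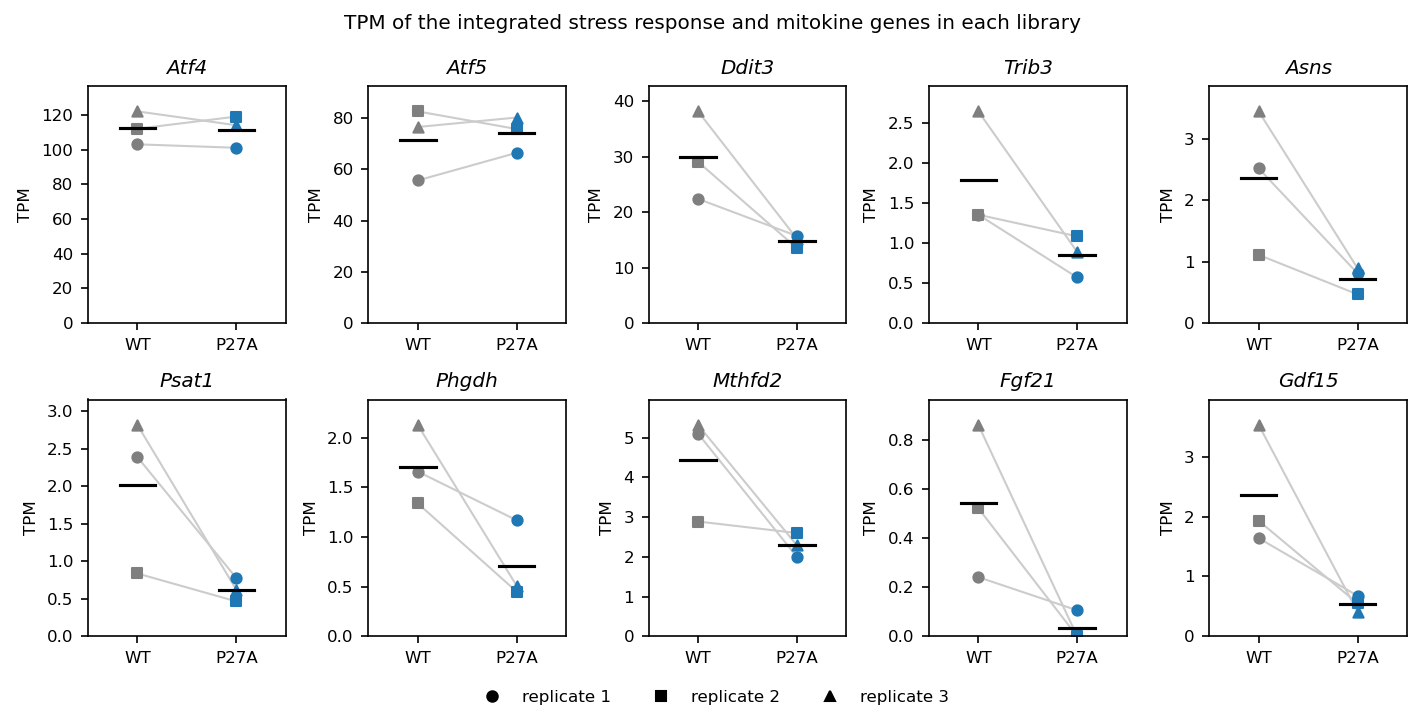
TPM of each of the 10 genes (y axes, linear and from 0, each with its own range) in the 3 LrpprcWT and 3 LrpprcP27A libraries. Symbols mark the replicate number, grey lines join libraries of the same number and black bars are group means. The groups overlap for *Atf4* and *Atf5* and do not overlap for the other 8 genes, all lower with LrpprcP27A.

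*Atf4* and *Atf5*, the factors that head the pathway, overlapped between the groups. The other 8 genes had less TPM in every LrpprcP27A library than in any LrpprcWT library, and so were below in 3 of 3 same-numbered pairs. Of the 9 members that could be tested, 6 were lower at an adjusted p under 0.05 from limma (*Ddit3*, *Asns*, *Psat1*, *Phgdh*, *Mthfd2* and *Gdf15*), where 23.3% of all tested genes were lower and 1.34% higher. No member was higher, at an adjusted or an unadjusted p under 0.05. In all, 47.6% of tested genes had groups that did not overlap with LrpprcP27A lower. These counts over the members are not support for a shift of the list. *Trib3*, *Asns*, *Psat1*, *Phgdh* and *Gdf15* reached the filter of 1 TPM only through their level with LrpprcWT, so that they had to be lower with LrpprcP27A. Among the 4 members above 1 TPM in both groups, 2 were lower, *Ddit3* and *Mthfd2*. The 6 calls depended on single libraries, and their number was 0 without LrpprcWT replicate 3 (5 at an unadjusted p under 0.05), 2 without LrpprcWT replicate 1, 7 without LrpprcWT replicate 2, and 3, 2 and 1 without LrpprcP27A replicates 1, 2 and 3.

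*Atf4* (chromosome 15 of GRCm39, 80139372 to 80141745) encodes the central transcription factor of the response. It had 103, 112 and 122 TPM in the LrpprcWT libraries and 101, 119 and 114 TPM in the LrpprcP27A libraries. Its values overlapped throughout, and its level lay above that of 97.1% of the genes with any TPM in the LrpprcWT group. Its log2 fold change was -0.016 with a 95% confidence interval of -0.27 to 0.24 (adjusted p = 0.912 from limma). With 87.0% of tested genes having a lower log2 fold change, *Atf4* stood above the typical gene. Its difference turned to 0.36 with an interval of 0.036 to 0.68 under median-of-ratios scaling (adjusted p = 0.118 from limma), and to 0.25 and 0.18 under quantile normalization and rescaling over nuclear protein-coding genes. When the replicate number was a block as well, the median-of-ratios values of *Atf4* were called higher (adjusted p = 0.0187 from limma).

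*Atf5* (chromosome 7, 44461680 to 44466082) encodes a related factor that is translated like Atf4 and regulates mitochondrial protein quality genes. Its libraries had 55.7, 82.7 and 76.6 TPM with LrpprcWT and 66.5, 75.8 and 80.3 TPM with LrpprcP27A. The LrpprcP27A values all lay within the LrpprcWT range. On the deposited scale the difference in log2 was 0.064, with an interval of -0.29 to 0.42 (adjusted p = 0.747 from limma), and 0.43 with an interval of -0.068 to 0.94 after median-of-ratios scaling (adjusted p = 0.199). *Nup62* and *Il4i1* overlap *Atf5* on the other strand, and the library kit does not mark strand, so reads in the shared part cannot be told apart. *Nup62* itself had 15.3 to 20.8 TPM, and *Il4i1* 0.548 to 0.669 TPM.

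*Ddit3* (chromosome 10, 127124268 to 127132163 and 127126698 to 127129622 for its 2 annotated genes) encodes CHOP, a factor that works downstream of Atf4 and favours cell death under lasting stress. It had 22.4, 29.1 and 38.2 TPM with LrpprcWT and 15.7, 13.5 and 15.2 TPM with LrpprcP27A. All LrpprcP27A libraries were below the lowest LrpprcWT library, and they also lay closer together. The mean TPM was 2.02-fold lower, with a log2 fold change of -0.94 ± 0.18 (SE, limma adjusted p = 0.0177). On the median-of-ratios scale it was -0.58 (limma adjusted p = 0.0821). *Mars1* overlaps *Ddit3* on the other strand and *Mbd6* overlaps the longer of its genes. *Mars1* had 27.5 to 29.0 TPM with LrpprcWT and 29.8 to 32.5 TPM with LrpprcP27A, the opposite order to *Ddit3*. *Mbd6* was lower, with a log2 fold change of -0.63 (adjusted p = 0.0271 from limma). Its mean was 16.5 TPM with LrpprcWT and 10.3 TPM with LrpprcP27A, and how many reads it shares with *Ddit3* is not known.

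*Trib3* (chromosome 2, 152179337 to 152191958) encodes a pseudokinase that is induced by Atf4 and CHOP and restrains both. Its libraries had 1.35, 1.35 and 2.64 TPM with LrpprcWT and 0.567, 1.08 and 0.885 TPM with LrpprcP27A. The groups did not overlap, with LrpprcP27A replicate 2 nearest to the LrpprcWT values. The log2 fold change of -0.57 ± 0.21 (SE) did not pass the test (adjusted p = 0.0676 from limma). With the replicate number as a block it did (adjusted p = 0.00737 from limma), a fit in which 48.4% of all tested genes were lower and 2.69% higher. Under that block 7 of the 9 tested members were lower.

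*Asns* (chromosome 6, 7671667 to 7728461), which makes asparagine, had 2.52, 1.11 and 3.45 TPM with LrpprcWT and 0.808, 0.466 and 0.892 TPM with LrpprcP27A. LrpprcWT replicate 2 was well below the other 2 libraries of its group and only a little above the highest LrpprcP27A library. For *Asns* the log2 fold change was -0.91 ± 0.26 (SE, limma adjusted p = 0.0400), and -0.69 after median-of-ratios scaling (adjusted p = 0.0769, and 0.0144 with the block).

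*Phgdh* and *Psat1* encode the first enzymes of serine synthesis. *Psat1* (chromosome 19, 15882039 to 15924701) had 2.39, 0.839 and 2.82 TPM with LrpprcWT and 0.779, 0.467 and 0.622 TPM with LrpprcP27A. As for *Asns*, LrpprcWT replicate 2 lay near the other group, which is not particular to these genes. Over all tested genes this library correlated by 0.9806 and 0.9832 with LrpprcWT replicates 1 and 3. With LrpprcP27A replicates 1, 2 and 3 it correlated by 0.9888, 0.9798 and 0.9775. The log2 fold change of *Psat1* was -0.83 ± 0.26 (SE, limma adjusted p = 0.0481). *Phgdh* (chromosome 3, 98220484 to 98255047) had 1.66, 1.34 and 2.13 TPM with LrpprcWT and 1.17, 0.451 and 0.511 TPM with LrpprcP27A. Here it was LrpprcP27A replicate 1 that lay near the other group. For *Phgdh* the log2 fold change was -0.68 ± 0.20 (SE, limma adjusted p = 0.0401). After median-of-ratios scaling the values were -0.62 for *Psat1* (limma adjusted p = 0.0957, or 0.0316 once the block was added) and -0.48 for *Phgdh* (adjusted p = 0.109 from limma).

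*Mthfd2* (chromosome 6, 83282673 to 83302890) encodes a mitochondrial enzyme of one-carbon metabolism that adult tissues normally keep low. It had 5.10, 2.89 and 5.32 TPM with LrpprcWT and 2.00, 2.60 and 2.29 TPM with LrpprcP27A. Only LrpprcWT replicate 2 was near the LrpprcP27A range, and in the pair of replicate 2 the log2 difference was -0.11 against -1.02 and -0.94 in the pairs of replicates 1 and 3. The log2 fold change was -0.69 ± 0.20 (SE, limma adjusted p = 0.0419), and -0.40 after median-of-ratios scaling (adjusted p = 0.104).

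*Gdf15* (chromosome 8, 71082038 to 71091537) encodes a stress hormone that reduces appetite through a receptor in the hindbrain. It had 1.64, 1.93 and 3.53 TPM with LrpprcWT and 0.678, 0.551 and 0.412 TPM with LrpprcP27A. The gap between the groups was wide, and in no member tested was the log2 fold change larger. The mean TPM was 4.33-fold lower, and the log2 fold change was -1.09 with a 95% confidence interval of -1.56 to -0.61 (adjusted p = 0.0174 from limma). *Gdf15* was the 1 member still lower after median-of-ratios scaling, with a log2 fold change of -0.89 (adjusted p = 0.0348 from limma), where 6.03% of all tested genes were lower and 5.25% higher. Under rescaling over nuclear protein-coding genes it was also called (adjusted p = 0.0362 from limma), and under quantile normalization it was not (-0.70, adjusted p = 0.0618). Without LrpprcWT replicate 3 the log2 fold change was -0.85 (adjusted p = 0.0874 from limma).

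*Fgf21* (chromosome 7, 45263301 to 45266963), a hormone that acts on fat and brain, was near the limit of detection. Its LrpprcWT libraries had 0.241, 0.521 and 0.860 TPM. LrpprcP27A replicate 1 had 0.106 TPM, and replicates 2 and 3 were listed at 0. No fold is given against values at 0, and the gene was not in the test because its mean was under 1 TPM. All LrpprcWT libraries were above all LrpprcP27A libraries (p = 0.10 in a two-sided exact permutation test, which cannot go lower with 3 against 3). *Fut1*, which overlaps *Fgf21* on the other strand and may share reads with it, had 0 to 0.0730 TPM and was highest in LrpprcP27A replicate 3, where *Fgf21* was listed at 0. In a fit with no filter on low values the *Fgf21* adjusted p was 0.0723 from limma.

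**Figure D2:**
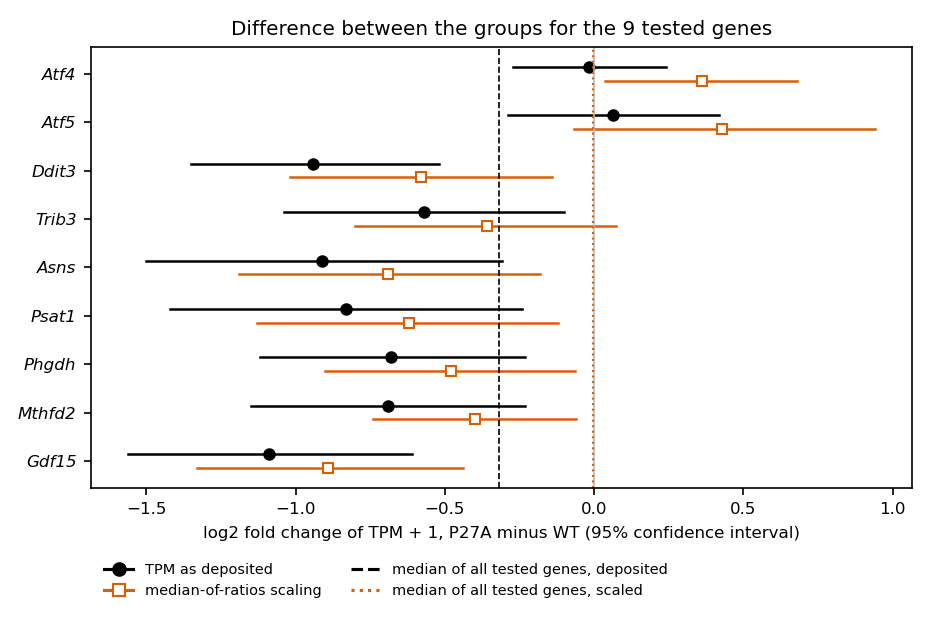
Log2 fold change of TPM + 1, LrpprcP27A minus LrpprcWT, for the 9 tested genes, with 95% confidence intervals from limma as horizontal lines. Black circles are TPM as deposited and open orange squares the values after median-of-ratios scaling, and vertical lines mark the median of all tested genes on each scale (-0.32 and -0.0047). *Atf4* and *Atf5* lie near 0 as deposited and above it after scaling, while the other 7 genes lie below 0 on both scales.

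The members were also expressed relative to *Atf4* in the same library, a quantity added after the values were seen that no scaling of the libraries can change. *Atf5* had 53.8, 73.8 and 62.6 TPM per 100 TPM of *Atf4* with LrpprcWT and 65.7, 63.6 and 70.5 with LrpprcP27A, so these 2 factors kept overlapping ratios. *Ddit3* had 21.7, 26.0 and 31.2 with LrpprcWT and 15.6, 11.3 and 13.3 with LrpprcP27A, which is 1.96-fold lower on average. *Gdf15* had 1.59, 1.72 and 2.89 against 0.670, 0.462 and 0.362, which is 4.15-fold lower. Of the remaining members, *Trib3*, *Asns*, *Phgdh*, *Mthfd2* and *Fgf21* also had groups that did not overlap, all lower with LrpprcP27A. As 87.0% of tested genes had a lower log2 fold change than *Atf4*, a lower ratio is common. Of the 11610 other tested genes, 34.2% had ratios to it that did not overlap and were lower. The count of members is not support for a shift of the list. *Trib3*, *Asns*, *Phgdh* and *Gdf15* reached the filter only through their level with LrpprcWT, and *Fgf21* was not among the tested genes. For *Psat1* the groups overlapped, since LrpprcWT replicate 2 had 0.749 and LrpprcP27A replicate 1 had 0.770. For each of the 7 members whose ratios did not overlap the exact permutation test gave p = 0.10, two-sided, the smallest that 3 against 3 allow, and for *Psat1* it gave p = 0.20.

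**Figure D3:**
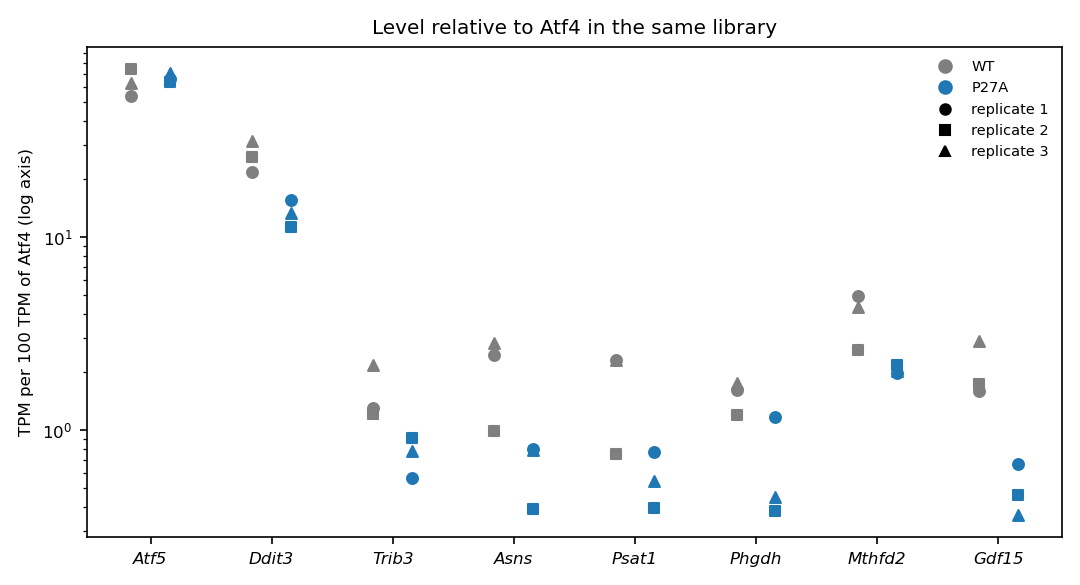
TPM of 8 genes per 100 TPM of *Atf4* in the same library (y axis, logarithmic), with LrpprcWT libraries in grey and LrpprcP27A libraries in blue and symbols for the replicate number. *Fgf21*, at 0 in 2 libraries, is left out. *Atf5* overlaps between the groups, *Ddit3* falls from a mean of 26.3 to 13.4 and *Gdf15* from 2.07 to 0.498.

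The wider pathway was described with 90 other genes in 7 lists, of which 80 could be tested. Of these, 20 were called lower (25.0%) and 2 higher by limma (adjusted p under 0.05). The share of lower genes is close to the 23.3% of all tested genes and is not a result about the pathway. With the replicate block 45 of the 80 were lower (56.2%, against 48.4% of all tested genes). The counts in each list below are to be read against these shares of all tested genes.

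Kinases, eIF2 and eIF2B subunits and phosphatase subunits, the sensors and the switch of the response, gave 2 lower genes of 16 (limma, adjusted p under 0.05), with a median log2 fold change of -0.28, and 7 lower with the block. *Ppp1r15a*, the stress-induced phosphatase subunit that ends the response, had 37.2, 41.0 and 45.7 TPM with LrpprcWT and 31.6, 28.1 and 23.5 TPM with LrpprcP27A. Its log2 fold change was -0.56 (adjusted p = 0.0283 from limma). *Eif2ak3*, the kinase PERK of the endoplasmic reticulum, had a log2 fold change of -0.53 (adjusted p = 0.0289 from limma). After median-of-ratios scaling the list's median was 0.062, and these 2 genes had -0.20 and -0.27 with adjusted p of 0.391 and 0.101 from limma.

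Other stress factors of the bZIP class, the DNA-binding family of Atf4, included the largest change of the pathway. *Atf3*, an early stress factor that is induced by Atf4, had 83.2, 61.4 and 99.8 TPM with LrpprcWT and 19.6, 15.4 and 12.9 TPM with LrpprcP27A. The groups lay far apart, and its log2 fold change was -2.27 ± 0.20 (SE, limma adjusted p = 0.00384). It was still -1.91 after median-of-ratios scaling (adjusted p = 0.00667). *Xbp1*, a factor of the unfolded protein response, had a log2 fold change of -0.55 (adjusted p = 0.0490 from limma) and -0.18 after scaling (adjusted p = 0.301). In all, 2 of the 10 factors were lower, and 8 with the block.

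Genes of amino acid synthesis, one-carbon metabolism and amino acid transport gave 5 lower (38.5%) and 1 higher of 13 tested. With the block 10 were lower (76.9%). The shares of all tested genes were 23.3% lower, and 48.4% with the block. The list's median log2 fold change was -0.48. *Slc7a5* and *Slc3a2*, the 2 chains of a transporter of large neutral amino acids, had log2 fold changes of -0.75 and -0.64 (adjusted p = 0.0409 and 0.0428 from limma). *Aldh18a1*, an enzyme of proline synthesis, had -0.56 (adjusted p = 0.0414 from limma). *Gpt2*, the mitochondrial alanine aminotransferase, went the other way, from 42.2, 49.7 and 55.7 TPM to 56.7, 80.6 and 104 TPM. Its log2 fold change was 0.66 (adjusted p = 0.0485 from limma), and 1.03 after median-of-ratios scaling (adjusted p = 0.0395). The 5 lower genes of this list were no longer called after that scaling, although *Slc7a5* was when the block was added (adjusted p = 0.0212 from limma).

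Cytosolic aminoacyl-tRNA synthetases, which charge tRNAs and are also known Atf4 targets, had a median log2 fold change of -0.037. None of the 12 was called in either direction by limma, at an adjusted or an unadjusted p under 0.05, and the Kruskal-Wallis test gave 1 higher at an unadjusted p under 0.05. *Nars1* had 47.6, 42.8 and 50.6 TPM with LrpprcWT and 42.0, 43.8 and 47.3 TPM with LrpprcP27A, and *Gars1* 41.4, 39.3 and 51.1 TPM and 36.9, 38.8 and 39.5 TPM. Both genes overlapped between the groups. On the centred scale the list's median was 0.31 and 4 of 12 were called higher by limma, where 5.25% of all tested genes were. With the block added, 9 of these 12 were higher, a fit in which 15.8% of all tested genes were lower and 13.4% higher. In that same fit 3 members were lower, *Asns*, *Psat1* and *Gdf15*.

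Stress effectors gave 4 lower and 1 higher of 10. *Trib1*, a pseudokinase related to *Trib3*, had 24.8, 14.7 and 34.2 TPM with LrpprcWT and 10.5, 5.77 and 8.86 TPM with LrpprcP27A, a log2 fold change of -1.41 (adjusted p = 0.0210 from limma). *Gadd45a*, a growth arrest gene that also rises on denervation, had 49.0, 41.9 and 82.4 TPM and 18.4, 22.4 and 26.2 TPM, a log2 fold change of -1.29 (adjusted p = 0.0166). *Trib1* and *Gadd45a* kept their calls after median-of-ratios scaling (adjusted p = 0.0406 and 0.0386 from limma). *Nupr1*, a small stress-induced chromatin protein, had -0.78 (adjusted p = 0.0410 from limma) and was not called after scaling (adjusted p = 0.128) unless the block was added (adjusted p = 0.0400). *Vldlr*, a lipoprotein receptor that Atf4 induces, was higher, with 56.6, 48.8 and 39.2 TPM and 64.0, 86.6 and 84.4 TPM. Its log2 fold change was 0.69 (adjusted p = 0.0267 from limma).

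Genes of the unfolded protein response of the endoplasmic reticulum were below 0 in 15 of 15, where 88.0% of all tested genes were. Their median log2 fold change was -0.58. Of these 15 genes, 5 passed the test (33.3%, against 23.3% of all tested genes) and 13 with the block (86.7%, against 48.4%). *Manf*, a secreted protein of this response, had 12.4, 10.3 and 23.7 TPM with LrpprcWT and 6.08, 5.31 and 8.64 TPM with LrpprcP27A, a log2 fold change of -1.04 (adjusted p = 0.0362 from limma). The chaperone genes *Pdia4* and *Hsp90b1* had -0.97 and -0.80 (adjusted p = 0.0262 and 0.0397), and *Edem1*, which takes part in the disposal of misfolded protein, had -0.88 (adjusted p = 0.0436). After median-of-ratios scaling 13 of the 15 were below 0, where 50.8% of all tested genes were, with a median of -0.24. All 5 calls were lost, with 0 genes called by limma in either direction. An unadjusted p under 0.05 from limma was reached by 4 lower genes and 1 higher gene. With the block added to that scaling 7 were called lower and 1 higher, against 15.8% and 13.4% of all tested genes.

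Receptors of the mitokines were examined last. *Klb*, the co-receptor that Fgf21 needs, and *Gfral*, the receptor of Gdf15, were listed at 0 in all 6 libraries. Both were singled out after their values were seen. Of the 4 receptor genes tested, 2 were lower. *Fgfr4* had 3.43, 2.31 and 3.43 TPM with LrpprcWT and 0.761 to 1.33 TPM with LrpprcP27A, a log2 fold change of -0.93 (adjusted p = 0.0176 from limma, and 0.0353 after median-of-ratios scaling). *Fgfr1* had a log2 fold change of -0.64 (adjusted p = 0.0374 from limma) and -0.29 after scaling (adjusted p = 0.108, and 0.0316 with the block).

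**Figure D4:**
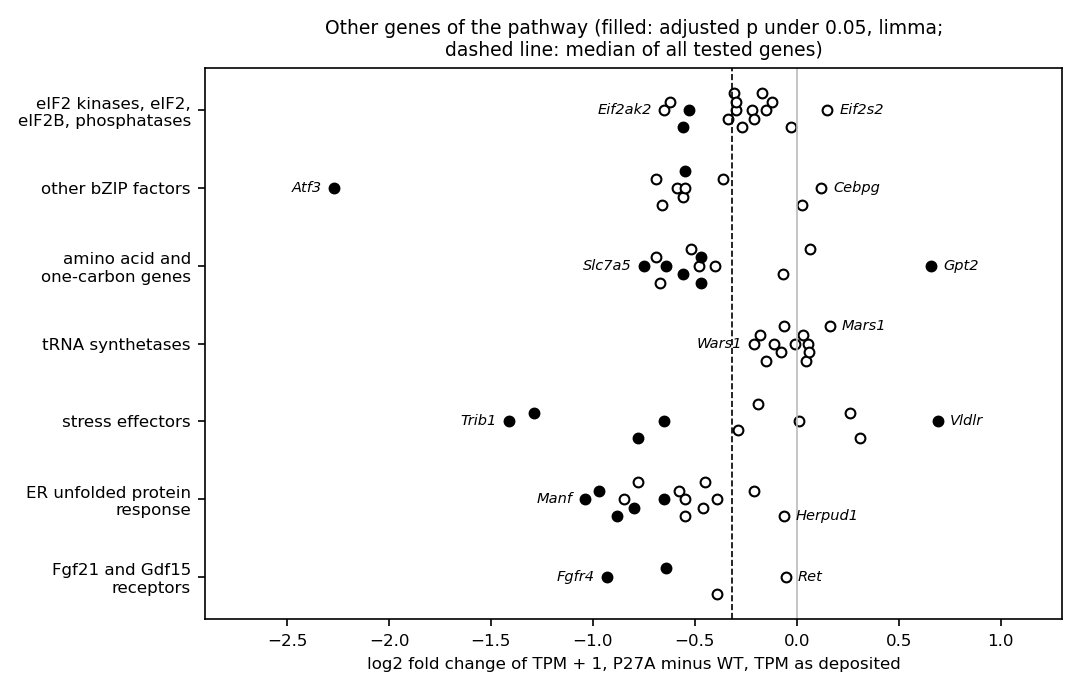
Log2 fold change of TPM + 1, LrpprcP27A minus LrpprcWT, on the deposited scale, for the 80 tested genes of the 7 lists (rows). Filled points have an adjusted p under 0.05 from limma, the dashed line is the median of all tested genes (-0.32), and the lowest and highest gene of each list are named. *Atf3* lies farthest below 0 at -2.27, *Gpt2* and *Vldlr* are the filled points above 0, and the synthetases lie around 0.

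Genes with the most similar profile were found by the root mean square difference of gene-centred log2(TPM + 1) over the 6 libraries, as a description. Nearest to *Atf4* were *Timm23*, a subunit of the mitochondrial import channel, with a difference of 0.020, *Stim2*, a calcium sensor, with 0.026, and *Sgsm3* with 0.028. *Timm23* had 210 to 259 TPM with LrpprcWT and 211 to 251 TPM with LrpprcP27A. Nearest to *Gdf15*, the tested member with the largest change, were *Gm34006* with a difference of 0.10, *Rhob*, a stress-induced small GTPase, with 0.11, and *Ptgr1* with 0.12. *Rhob* had 77.8, 80.9 and 122 TPM with LrpprcWT and 48.7, 39.7 and 45.7 TPM with LrpprcP27A, so that, as for *Gdf15*, LrpprcWT replicate 3 was the highest library.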

How the data were processed

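RNA was sequenced from 6 muscles, 3 per group, in paired reads of a kit that does not mark strand. Reads passing the authors' quality and length filters were mapped in CLC Genomics Workbench against GRCm39, and the authors deposited the resulting TPM per gene, which sums to the same total in every library and keeps no depth. From these, log2(TPM + 1) was tested for genes with a mean of at least 1 TPM with limma 3.58.1 in R 4.3.3 (trend, Benjamini-Hochberg adjustment). In simulated data this fit recovered 191 of 200 changes of 2 log2 units, with 16 false calls. The simulation held no shift of the typical gene, and the members' changes are smaller, so it does not speak for their calls. The methods of the study use a Kruskal-Wallis test, given here as an alternative. For its plotted example genes the study's figure legend names an unpaired t test, which was not run here. The members and lists were chosen with earlier results of these data known. Genes named from the lists are up to 4 called genes of largest change per list, or else the 2 of highest level, and the 3 nearest profiles to *Atf4* and to the most changed tested member. The replicate number is in the labels and the muscles were contralateral. Deviations from group means correlated by 0.363, 0.528 and 0.356 in the same-numbered pairs, so the numbers were taken as pairs in the fits with a block. The main fit held the group only and did not pair the libraries. It called 23.3% of all tested genes lower, and the fit with the block 48.4%. Without a block the p-values measure the spread between these muscles. With a block they measure the spread of the differences within same-numbered pairs. Promoters are RefSeq windows, placed on GRCm39 by exact match, and positions are from GENCODE.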

Additional observations from a re-analysis of the deposited data

How the results depend on the processing

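Of the 9 tested members, 6 were lower and 0 higher. The lower count was 0 with no filter on low values (8 of 10, *Fgf21* included, at an unadjusted p under 0.05 from limma), 0 with the Kruskal-Wallis test (7 unadjusted), whose smallest p with 3 against 3 is 0.0495, and 0 with quantile normalization (3 unadjusted). A mean TPM of at least 5 left 3 members and gave 1. Median-of-ratios scaling gave 1, rescaling over nuclear protein-coding genes 2, and the replicate block with median-of-ratios scaling 3 lower and 1 higher. Leaving out each library in turn gave 0 to 7. Of the 80 other pathway genes, 20 were lower and 2 higher. In the same order of settings these were 1 and 0 with no filter (40 and 2 unadjusted) and 0 and 0 with Kruskal-Wallis (35 and 3 unadjusted). They were 3 and 5 with quantile normalization and 12 and 1 with a mean of at least 5. Median-of-ratios scaling gave 4 lower and 7 higher, the rescaling 4 and 2, and the block with scaling 16 and 17. The replicate block alone gave 45 lower and 2 higher, and limma without the trend 19 lower and 1 higher. Leaving out each library gave 1 to 46 lower and 0 to 3 higher. The log2 fold change of *Atf4*, -0.016 as deposited, was 0.36 under median-of-ratios scaling with or without the block, 0.25 under quantile normalization and 0.18 under the rescaling, and -0.075 to 0.052 with each library left out. For *Atf5* the latter range was -0.10 to 0.18. The other 7 tested members stayed below 0 in every alternative. Besides its effect on *Trib3* and on the counts, the replicate block on the deposited scale changed no call of a member. Apart from the settings that test fewer or other genes or libraries, the causes of these differences were not tested. TPM gives no depth, so precision at the low levels of *Fgf21*, *Trib3*, *Asns*, *Psat1*, *Phgdh* and *Gdf15* cannot be stated.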

Other observations

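Further genes of the lists passed the test but were not among those of largest change. *Trib2*, a pseudokinase related to *Trib3*, had a log2 fold change of -0.65 (adjusted p = 0.0231 from limma), *Calr*, a chaperone of the endoplasmic reticulum, -0.65 (adjusted p = 0.0339), *Shmt2*, the mitochondrial serine hydroxymethyltransferase, -0.47 (adjusted p = 0.0444), and *Pycr1*, an enzyme of proline synthesis, -0.47 (adjusted p = 0.0426). After median-of-ratios scaling the adjusted p from limma of these 4 genes lay between 0.163 and 0.386, and with the block added that of *Calr* was 0.0414.

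The values of 2 known Atf4 targets, picked out after they were seen, spread widely within the LrpprcP27A group. *Chac1*, a glutathione-degrading enzyme, had 38.8, 49.8 and 46.2 TPM with LrpprcWT and 28.4, 70.1 and 85.5 TPM with LrpprcP27A (log2 fold change 0.31, adjusted p = 0.474 from limma). *Ddit4*, an inhibitor of mTORC1 signalling, had 16.6, 10.8 and 33.3 TPM and 13.6, 8.74 and 85.4 TPM (log2 fold change 0.26, adjusted p = 0.778). LrpprcP27A replicate 3, the highest library for both, was not the highest library for any of the 10 members.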
